A study of Mus musculus with 2 samples.

Results

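The genes described here are 9 genes of coagulation and fibrinolysis: F3, F13a1, Tfpi, Thbd, Procr, Serpine2, Plau, Plat and Plaur. They were chosen by name from the 32287 features of each count table, and all 9 had a row in both tables. The cells came from mice of the genotype p16-2A-CreER;R26-mTmG after myocardial infarction (MI), given tamoxifen by oral gavage on day 5 and taken on day 7. Every cell therefore carried the same Cre driver, reporter, infarct and tamoxifen. Cells of the infarct zone, depleted of cardiomyocytes, were sorted into a GFPhi fraction and a GFPlo fraction, whose label also reads GFP-negative. Cre made from the p16 locus turns membrane tomato into membrane GFP, so GFP records activity of that promoter around the time of tamoxifen. Each fraction gave 1 droplet library read from the 3′ end of transcripts. Age, sex and the number of mice behind each library are not stated in the labels. With 1 library per fraction no test of a difference was possible, and no p-value is given.

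The GFPhi table counted 91343549 UMIs (unique molecular identifiers, each 1 captured transcript) over 10430 barcodes, and that of GFPlo 104855204 UMIs over 12344. After barcodes under 300 genes, under 500 UMIs or over 20% mitochondrial UMIs were dropped, 10125 and 11959 cells remained, with medians of 6899 and 7712 UMIs. The libraries share 94 barcodes. Cells were put in classes by counting marker genes with a UMI, and no gene described here served as a marker. GFPhi held 7788 macrophage-like cells: 891 resident-like, 1104 lipid-associated, 1658 MHC class II high, 1387 Gdf15 high, 411 cycling and 2337 others. Lipid-associated, MHC class II high and Gdf15 high cells were cut from summed marker levels and are ranges: 9.35%, 3.52% and 23.7% of the 7788 cells lay within 20% of each cut, and 1067 cells (13.7%) met more than 1 subset gate. GFPlo held 66 macrophage-like cells, too few to divide. Class names are those of the gates. Endocardial-like cells numbered 90 in GFPhi and 477 in GFPlo, capillary-like cells 71 and 133, lymphatic endothelial-like cells 71 and 202, mesothelial-like cells 301 and 1409, and fibroblast-like cells 294 and 7126. GFPlo also held 103 mural-like cells, 572 lymphocytes and 45 neutrophils, and GFPhi 92 lymphocytes. No class of platelets could be formed, and the 7 platelet markers summed to between 0 and 25.5 CPM (UMIs per 1000000 UMIs of the class) in every class of at least 30 cells. Macrophage RNA was present in the other classes of GFPhi: the complement genes C1qa, C1qb and C1qc summed to 129 to 257 CPM in its endothelial, mesothelial and fibroblast classes, against 0 to 7.63 CPM in those of GFPlo and 13052 CPM in macrophages of GFPhi. With the other classes limited to cells with at most 1 C1q UMI, 54 ratios past 2-fold stayed so and 2 did not. That limit did not touch macrophages, and endocardial-like cells of GFPlo went only from 477 to 476. Ratios between macrophage subsets or within GFPlo could therefore hardly change. In GFPhi 29 capillary-like cells were left, under the 30 asked for, so ratios of that class were not recomputed.

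Coagulation starts when tissue factor, the product of F3, meets factor VII outside the vessel, and it ends when thrombin turns fibrinogen into fibrin and factor XIII, whose A subunit F13a1 encodes, crosslinks the strands. Vessel walls hold the reaction in check through tissue factor pathway inhibitor (Tfpi), through thrombomodulin (Thbd), which binds thrombin, and through the endothelial protein C receptor (Procr), which presents protein C to that complex. Fibrin is removed by plasmin, made from plasminogen by tissue-type (Plat) and urokinase-type (Plau) plasminogen activators, the latter held on cells by its receptor Plaur, while protease nexin 1 (Serpine2) inhibits thrombin and both activators. In the infarcted heart these steps accompany the replacement of dead muscle by granulation tissue and scar.

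Positions are those of GENCODE vM21 (mm10). F3 (ENSMUSG00000028128) lies on chromosome 3 at 121723537–121735048 on the plus strand, and F13a1 (ENSMUSG00000039109) on chromosome 13 at 36867178–37050244 on the minus strand. Tfpi (ENSMUSG00000027082, 84432855–84476775, minus strand), Thbd (ENSMUSG00000074743, 148404466–148408188, minus strand) and Procr (ENSMUSG00000027611, 155751117–155755471, plus strand) are all on chromosome 2. Serpine2 (ENSMUSG00000026249) lies on chromosome 1 at 79794197–79861180 on the minus strand. Plau (ENSMUSG00000021822) lies on chromosome 14 at 20836660–20843385, Plat (ENSMUSG00000031538) on chromosome 8 at 22757727–22782844 and Plaur (ENSMUSG00000046223) on chromosome 7 at 24462484–24475968, all on the plus strand. F13a1 is overlapped by 2 annotated antisense genes, and the others by none. The labels do not state whether counting used the strand.

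The promoters of 3 genes are shown because the results below turn on their class of highest level: resident-like macrophages for F13a1 and endocardial-like cells for Tfpi and Procr. They come from RefSeq (GRCm38.p6), run from 250 bases before to 50 bases after an annotated start, and read 5′ to 3′ along the gene. Capitals mark AGGAAG on either strand, a core bound by ETS factors, which include regulators of myeloid and of endothelial genes.
F13a1, first start (chr13:37050195-37050494, minus strand): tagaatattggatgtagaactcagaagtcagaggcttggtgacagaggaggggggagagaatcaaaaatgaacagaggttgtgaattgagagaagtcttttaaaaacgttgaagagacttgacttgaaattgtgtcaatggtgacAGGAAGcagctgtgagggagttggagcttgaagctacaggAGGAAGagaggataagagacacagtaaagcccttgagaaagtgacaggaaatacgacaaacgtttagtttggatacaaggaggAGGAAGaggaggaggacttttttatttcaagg
F13a1, second start (chr13:37049164-37049463, minus strand): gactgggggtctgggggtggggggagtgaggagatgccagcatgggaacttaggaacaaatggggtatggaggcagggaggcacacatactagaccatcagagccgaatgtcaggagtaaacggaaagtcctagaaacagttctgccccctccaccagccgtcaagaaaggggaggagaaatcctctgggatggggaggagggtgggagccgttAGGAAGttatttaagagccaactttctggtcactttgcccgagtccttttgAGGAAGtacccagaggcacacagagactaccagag
Tfpi, first start (chr2:84476710-84477009, minus strand): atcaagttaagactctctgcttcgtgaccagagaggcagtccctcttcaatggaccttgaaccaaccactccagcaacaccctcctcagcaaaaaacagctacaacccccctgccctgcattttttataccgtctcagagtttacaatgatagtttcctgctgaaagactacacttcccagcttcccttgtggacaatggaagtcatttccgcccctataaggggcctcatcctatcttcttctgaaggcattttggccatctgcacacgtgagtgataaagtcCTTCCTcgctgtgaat
Procr (chr2:155750967-155751266, plus strand): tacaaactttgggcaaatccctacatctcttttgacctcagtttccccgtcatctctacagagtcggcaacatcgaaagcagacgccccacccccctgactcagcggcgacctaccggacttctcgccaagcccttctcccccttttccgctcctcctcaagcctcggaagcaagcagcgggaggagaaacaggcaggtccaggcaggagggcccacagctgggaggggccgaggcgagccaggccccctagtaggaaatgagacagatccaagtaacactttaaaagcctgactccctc
The F13a1 windows held 3 and 2 matches, the printed Tfpi window 1 and the Procr window 0. A second Tfpi start (chr2:84474125-84474424, minus strand), not printed, held 2, as did Plaur, while Serpine2 held 1 and F3 held 0. Of all 32851 RefSeq promoter windows of this length, 35.4% held at least 1. Also searched on both strands were TGANTCA, bound by AP-1, then CCACCC, bound by KLF factors, and then AGATAA, bound by GATA factors, found in 7.81%, 31.5% and 11.2% of all windows. Procr held a match to the AP-1 motif, as did Plaur, and F3 held 2. CCACCC had 2 matches in F3, 2 at the second start of F13a1 and 1 in Procr, and AGATAA had 1, at the second start of Tfpi. These are matches of letters only, and no binding was measured. RefSeq windows were at hand for 6 of the 9 genes, and Plau, Plat and Thbd had none.

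Levels below are UMIs summed over the cells of a class, in CPM, with exact Poisson 95% intervals in brackets, and ratios carry exact conditional intervals. All intervals cover counting error only. A gene was compared where 1 of the groups reached 10 CPM and both together 20 UMIs, and it is said to be past 2-fold by its ratio alone. For each such count the share of all compared genes past 2-fold in the same direction is given as background.

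**Figure D1:**
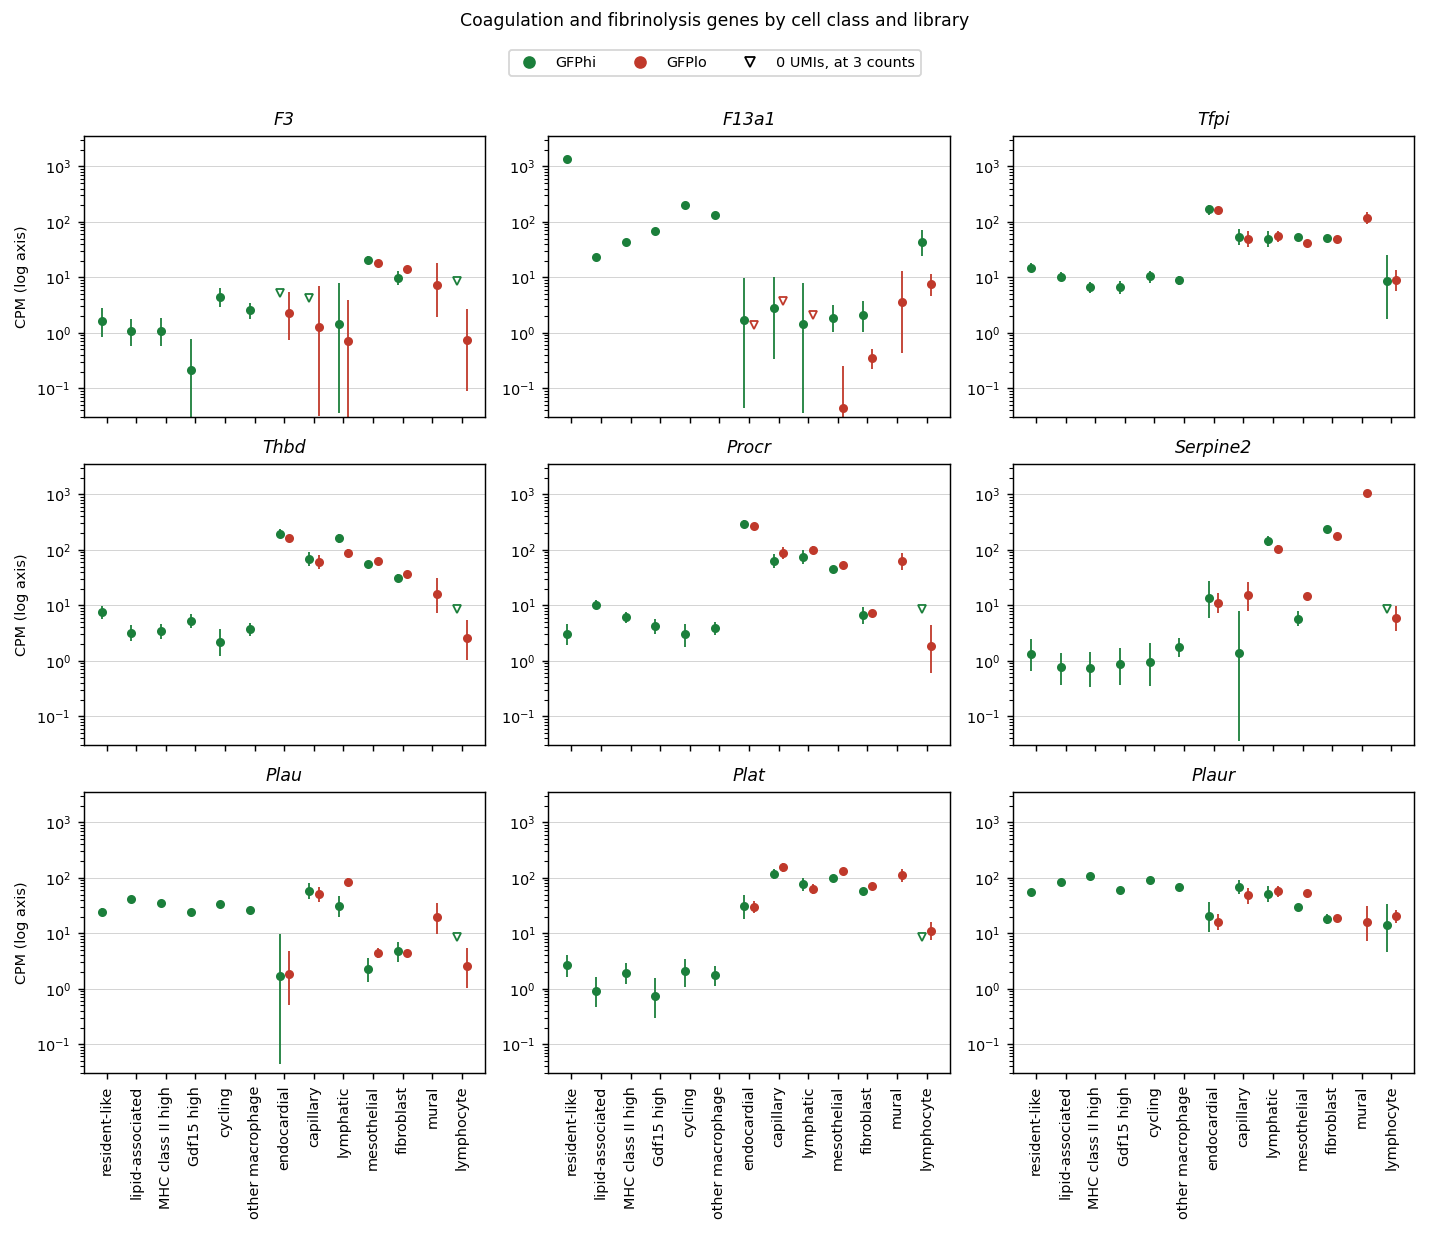
CPM (log axis) of each gene in classes of at least 50 cells, with exact Poisson 95% intervals; filled points are GFPhi (green) and GFPlo (red), and open triangles mark 0 UMIs, drawn at 3 counts. F13a1 is highest in resident-like macrophages, Tfpi and Procr in endocardial-like cells, and Serpine2 in mural-like cells.

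F3, which starts coagulation, was highest in mesothelial-like cells. It stood at 20.4 CPM (17.3–24.0) in GFPhi and 18.1 CPM (16.4–19.9) in GFPlo. Fibroblast-like cells followed at 9.74 (7.26–12.8) and 14.03 CPM (13.14–14.95), and mural-like cells of GFPlo stood at 7.14 CPM from 4 UMIs. The mesothelial level was 2.10-fold that of fibroblasts in GFPhi (1.52–2.94) and 1.29-fold in GFPlo (1.14–1.45), the same order in both libraries. With classes taken from Leiden clusters the GFPhi ratio was 1.46. Mesothelial-like cells also held the fibroblast marker Dcn, at 4840 CPM in GFPhi and 6003 CPM in GFPlo, against 5117 and 6613 CPM in fibroblast-like cells. In macrophages F3 was near the limit of detection, at 0.215 to 2.54 CPM in 5 subsets and 4.41 CPM (2.93–6.38) in cycling cells. Endothelial-like cells held 1 F3 UMI in GFPhi and 7 in GFPlo.

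F13a1, the factor XIII A subunit, was a gene of resident-like macrophages. Its level there was 1385 CPM (1359–1412), from 10330 UMIs. Cycling macrophages followed at 201 CPM (190–212), other macrophages at 131 (125–137), Gdf15 high cells at 67.1 (62.0–72.6), MHC class II high cells at 43.9 (40.2–47.8) and lipid-associated cells at 23.7 (21.1–26.5). None of these 6 intervals overlapped its neighbour. Resident-like cells exceeded all other macrophages of GFPhi 16.4-fold (15.9–17.0), while lipid-associated cells were 12.4-fold lower than the rest (11.1–13.9), MHC class II high cells 6.46-fold (5.93–7.06) and Gdf15 high cells 3.98-fold (3.68–4.32). For these lower ratios the rest includes resident-like cells, which held 66.4% of the F13a1 UMIs of GFPhi. The resident and cycling gates took precedence, so lipid-associated, MHC class II high and Gdf15 high cells passed neither. Ratios with resident-like cells left out of the rest were not computed. F13a1 was the only 1 of the 4 compared genes past 2-fold in resident-like cells, against 6.47% of all genes higher and 2.41% lower. In lipid-associated cells 1.49% of genes were past 2-fold higher and 11.7% lower, in MHC class II high cells 1.21% and 2.57%, and in Gdf15 high cells 0.153% and 3.23%. In cycling cells, where 9.08% were higher and 1.91% lower, 0 of 4 compared genes were past 2-fold, with F13a1 at 0.831 (0.784–0.880).

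The resident gate asked for 3 of 6 markers (Cd163, Folr2, Timd4, Cbr2, Lyve1 and Gas6). Among macrophages that were not cycling, the F13a1 level was higher with each further marker: 37.8 CPM with 0 markers (3617 cells), 69.6 with 1, 161 with 2, 539 with 3, 1332 with 4, 2001 with 5 and 2678 with 6 (149 cells). Median UMIs per cell lay between 6068 and 8952 over these 7 groups and did not follow that order. Plaur, by contrast, was at 87.9 CPM with 0 markers and 47.3 CPM with 6, and Plau at 33.5 and 26.8 CPM. Of resident-like cells 90.2% had an F13a1 UMI (88.1–92.1, median 7353 UMIs per cell), against 3.74% of fibroblast-like cells of GFPhi (median 15356.5 UMIs), a type that should lack it. With each cell thinned to 1000 UMIs the shares were 65.1% and 0.341%. The transcript was spread unevenly: 87 of 891 resident-like cells had 0 UMIs, the median was 9, the highest cell had 87, and the 90 cells with most held 33.2% of all F13a1 UMIs of the class.

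**Figure D2:**
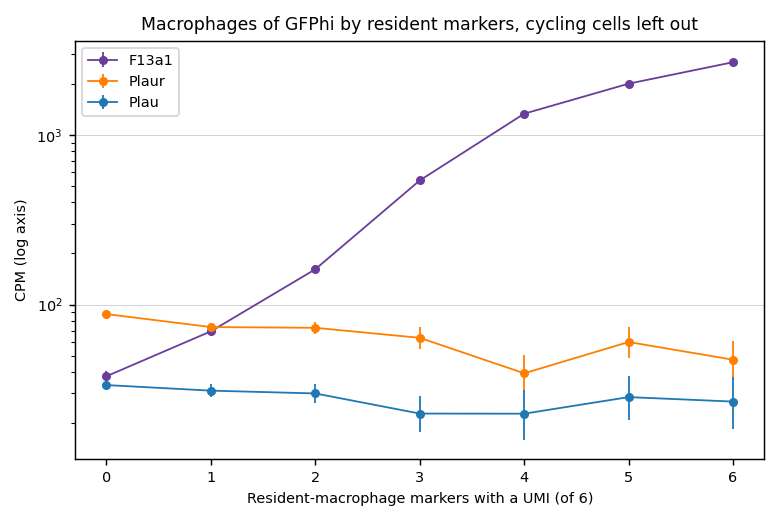
CPM (log axis) of F13a1, Plaur and Plau in macrophages of GFPhi grouped by how many of 6 resident-macrophage markers had a UMI, with exact Poisson 95% intervals. F13a1 runs from 37.8 CPM with 0 markers to 2678 CPM with 6, while Plau stays between 22.8 and 33.5 CPM.

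Outside macrophages F13a1 was scarce. Endothelial, mesothelial and fibroblast classes stood at 1.43 to 2.80 CPM in GFPhi and at 0 to 0.344 CPM in GFPlo. Lymphocytes stood at 42.8 CPM in GFPhi (23.9–70.5, 15 UMIs) and 7.46 CPM in GFPlo (4.56–11.5), where C1qa, C1qb and C1qc summed to 508 and 1.12 CPM. F13a1 is also a platelet gene, and the platelet markers summed to 14.7 CPM in resident-like cells, with 3 of 7 at 0. In the other macrophage subsets of GFPhi they summed to 3.47 to 5.90 CPM. The part of platelet RNA in the F13a1 level was not tested.

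The 3 brakes on coagulation had their highest CPM in the endocardial class. Tfpi stood at 168 CPM (136–204) in endocardial-like cells of GFPhi and 164 CPM (147–182) in those of GFPlo. Thbd stood at 195 (161–235) and 161 CPM (145–179), and Procr at 295 (253–343) and 273 CPM (251–296). For each of the 3 genes the 2 libraries overlapped, and the endocardial class ranked first of all classes in both. Its interval overlapped that of the next class for Tfpi in GFPlo (mural) and for Thbd in GFPhi (lymphatic).

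Below that class the 3 genes divided. Tfpi was at similar levels in capillary, lymphatic, mesothelial and fibroblast classes, 50.0 to 54.5 CPM in GFPhi and 40.9 to 55.6 in GFPlo. Mural-like cells of GFPlo had 120 CPM of Tfpi (92.7–152), and macrophages of GFPhi 6.56 to 15.0 CPM, highest in resident-like cells. Thbd stood at 162 CPM (133–194) in lymphatic cells of GFPhi and 87.9 CPM (73.2–105) in those of GFPlo. It stood at 69.9 and 61.0 CPM in capillary cells, 55.0 and 62.9 in mesothelial cells and 31.1 and 37.2 in fibroblasts, with GFPhi given first, and at 2.21 to 7.51 CPM in macrophages. In fibroblasts Procr stood at 6.69 and 7.32 CPM, and in mesothelial cells at 45.1 (40.4–50.2) and 52.7 CPM (49.7–55.8), a ratio of 6.74 (4.75–9.84) in GFPhi and 7.19 (6.47–8.01) in GFPlo. Among macrophages Procr was highest in lipid-associated cells at 10.3 CPM (8.67–12.2), 2.43-fold over the others (1.95–3.03, background 1.49%). That value lies just above the 10 CPM minimum and was under it when each gate asked for 1 more marker.

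As a whole, endothelial-like cells exceeded fibroblasts in Procr 20.2-fold in GFPhi (14.2–29.6) and 25-fold in GFPlo (22.3–28.0), in Plau 6.82-fold (4.24–11.3) and 8.42-fold (6.92–10.2), and in Thbd 4.44-fold (3.65–5.43) and 3.21-fold (2.91–3.53). Plaur in GFPhi, at 2.65-fold (1.98–3.55), and Tfpi in GFPlo, at 2.19-fold (1.99–2.41), made 4 of the genes higher in each library, against backgrounds of 22.3% and 17%. Plaur was at 1.74 with Leiden clusters, and Tfpi at 1.76 with median-of-ratios scaling. Serpine2 was 4.33-fold (3.56–5.31) and 4.25-fold (3.67–4.95) lower, and F3 8.75-fold lower in GFPlo (4.23–21.8), against 10.7% and 9.91% of genes.

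Against the other 2 endothelial classes of the same library, endocardial-like cells had more Tfpi, Thbd and Procr and less Plau, Plat, Plaur and Serpine2 in both libraries. Tfpi was 3.20-fold higher in GFPhi (2.34–4.40) and 3.07-fold in GFPlo (2.49–3.81), and Procr 4.27-fold (3.31–5.52) and 2.87-fold (2.45–3.38). Thbd was 1.69-fold (1.32–2.17) and 2.06-fold (1.71–2.48) higher. The GFPlo value of Thbd did not stay past 2-fold with cells thinned to 1000 UMIs (1.11) or with Leiden clusters (1.76). Of the 7 genes compared, 2 were past 2-fold higher in GFPhi (background 9.24%) and 3 in GFPlo (11.3%).

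The other 4 genes were past 2-fold lower in endocardial-like cells of both libraries, against backgrounds of 17.7% and 14.9%. Plau had 1 UMI there in GFPhi and 4 in GFPlo, and was 26.2-fold (4.53–1050.1) and 39.1-fold (15.0–145) lower than in the other endothelial cells. Serpine2 was 5.22-fold (2.55–12.4) and 6.39-fold (4.14–10.3) lower, Plat 3.14-fold (1.91–5.45) and 3.19-fold (2.40–4.28), and Plaur 2.90-fold (1.58–5.83) and 3.35-fold (2.28–5.03). With cells thinned to 1000 UMIs 0 of these 4 were past 2-fold above the minimum in GFPhi, where Plat and Plaur kept their direction under it. Dcn, a fibroblast marker, stood at 2512 and 2737 CPM in endocardial-like cells, against 5117 and 6613 CPM in fibroblasts, and Col1a1 at 104 and 278 CPM against 9420 and 9892.

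**Figure D3:**
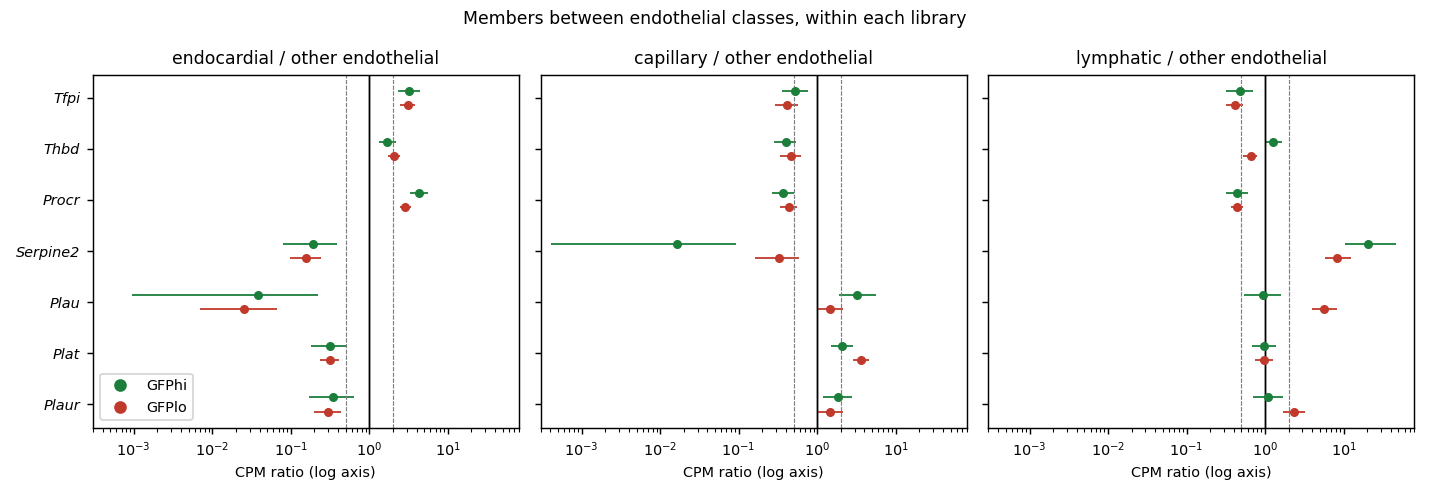
CPM ratio (log axis) of each endothelial class over the other 2 classes of the same library, with exact conditional 95% intervals; dashed lines mark 2-fold. Tfpi, Thbd and Procr lie above 1 in endocardial-like cells of both libraries, Plat lies above 1 in capillary-like cells, and Serpine2 lies above 1 in lymphatic cells.

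Plat was the plasminogen activator that was past 2-fold higher in capillary-like cells of both libraries. It was at 117 CPM (93.7–145) in GFPhi and 156 CPM (130–187) in GFPlo, 2.08-fold (1.504–2.90) and 3.63-fold (2.84–4.64) over the other endothelial cells. In GFPhi it was at 1.99 with Leiden clusters. Plau was at 58.7 (42.3–79.4) and 50.9 CPM (36.3–69.2), a ratio of 3.26 (1.92–5.68) in GFPhi and 1.47 (1.00–2.11) in GFPlo, where lymphatic cells had more. With cells thinned to 1000 UMIs both activators of GFPhi kept their direction but were under the minimum, so 0 of the 2 were past 2-fold. The background of genes past 2-fold higher was 8.68% and 8.2%, and of genes lower 12.3% and 11.4%. Thbd, Procr and Serpine2 were past 2-fold lower in both libraries and Tfpi was 1.89-fold lower in GFPhi and 2.44-fold in GFPlo. With the same thinning Thbd was 1.55-fold lower in GFPhi and 1.06-fold in GFPlo, and Procr 1.18-fold in GFPhi.

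Lymphatic cells stood out by Serpine2. Its level was 144 CPM (118–175) in GFPhi and 102 CPM (86.1–120) in GFPlo, 20.8-fold (10.5–46.7) and 8.34-fold (5.76–12.4) over the other endothelial cells. In the same comparison 9.08% and 11.4% of genes were past 2-fold higher, and 11.2% and 12.3% lower. Plau differed between the libraries there, at 31.4 CPM (19.7–47.6) in GFPhi and 84.4 CPM (70.0–101) in GFPlo. Against the other endothelial cells its ratio was 0.947 in GFPhi (0.539–1.62) and 5.65 in GFPlo (3.97–8.17), and that of Plaur 1.09 (0.702–1.67) and 2.33 (1.68–3.23). Tfpi was 2.10- and 2.40-fold lower and Procr 2.26- and 2.27-fold lower in lymphatic cells. In GFPhi neither stayed past 2-fold with Leiden clusters, at 1.93 and 1.79.

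Serpine2 was otherwise a mural and fibroblast gene. Mural-like cells of GFPlo stood at 1075 CPM (991–1164), and fibroblasts at 239 (226–252) in GFPhi and 176 CPM (173–179) in GFPlo. Mesothelial cells were far below fibroblasts, at 5.78 and 14.6 CPM, which is 41.3-fold (30.5–57.3) and 12.04-fold (10.8–13.5) lower. Macrophage subsets held 0.748 to 1.80 CPM, and summed they were 215-fold lower than fibroblasts of GFPhi (169–278).

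Plat was higher in endothelial, mesothelial, mural and fibroblast classes than in macrophages. Beside capillary cells it stood at 100 (93.3–108) and 133 CPM (128–138) in mesothelial cells, 111 CPM (84.9–142) in mural cells of GFPlo and 59.0 and 72.3 CPM in fibroblasts. Lymphatic cells stood at 77.2 and 62.6 CPM, and endocardial cells lower, at 31.1 and 30.1 CPM. Mesothelial cells exceeded fibroblasts 1.70-fold (1.49–1.95) and 1.84-fold (1.76–1.93). Macrophages held 0.753 to 2.68 CPM of Plat, 36.9-fold lower than fibroblasts when summed (29.4–46.7).

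Plau and Plaur, the urokinase and its receptor, were the fibrinolytic genes of macrophages. Plau stood between 23.9 CPM (20.8–27.2) in Gdf15 high cells and 41.4 CPM (37.9–45.0) in lipid-associated cells. Plaur stood between 54.8 CPM (49.7–60.4) in resident-like cells and 106 CPM (100–112) in MHC class II high cells, with lipid-associated cells at 84.3 and cycling cells at 89.7. Neither gene was past 2-fold in any subset: Plau ran from 0.731 in Gdf15 high to 1.44 in lipid-associated cells, and Plaur from 0.673 in resident-like to 1.48 in MHC class II high cells. Summed, macrophages of GFPhi exceeded fibroblasts 6.57-fold in Plau (4.44–10.2) and 4.27-fold in Plaur (3.49–5.28), against 16.9% of genes higher, and F13a1 was 113-fold higher (63.2–227). Tfpi, Thbd, Serpine2 and Plat were past 2-fold lower in that comparison, against 25% of genes.

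Plaur was widespread. Outside macrophages it stood at 68.5 and 48.3 CPM in capillary, 51.5 and 57.7 in lymphatic, 30 and 52.5 in mesothelial, 20.7 and 16.2 in endocardial and 18.3 and 18.7 CPM in fibroblast classes. Its highest level, 625 CPM (479–801), was in the 45 neutrophils of GFPlo, which held 62 Plaur UMIs at a median of 1356 UMIs per cell. Mesothelial cells exceeded fibroblasts 1.64-fold in GFPhi (1.28–2.10) and 2.81-fold in GFPlo (2.60–3.05), the latter at 1.39 with Leiden clusters. In mesothelial against fibroblast cells, 12.6% of genes were past 2-fold higher and 10.9% lower in GFPhi, and 10.2% and 8.86% in GFPlo.

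In pooled macrophages of GFPhi, the share of cells with UMIs of both Plau and Plaur was near the product of the single shares once depth was made equal, the product lying inside the interval. In 7690 macrophages of GFPhi thinned to 1000 UMIs, 13 cells held both (0.169%, 0.0900–0.289), beside a product of 0.181%. From 13 cells that interval is too wide to tell a moderate excess from none. Unthinned, 7.22% held both (6.65–7.81), beside a product of 5.21%. Thbd and Procr met in 16 of 474 thinned endocardial cells of GFPlo (3.38%, 1.94–5.42), beside a product of 2.84%.

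The next comparison set GFPhi against GFPlo, names that come from the sort. The reporter transcript mGFP stood at 33.8 CPM in GFPhi and 22.8 CPM in GFPlo over all cells. In fibroblasts it stood at 27.1 and 23.2 CPM, and in lymphatic cells at 236 and 40.1 CPM. Over all cells F13a1 was 155-fold higher in GFPhi (129–188), Plau 4.06-fold (3.71–4.44) and Plaur 2.25-fold (2.15–2.35), while Serpine2 was 5.21-fold lower (4.99–5.45), Plat 3.34-fold (3.18–3.50), F3 2.74-fold (2.47–3.05), Thbd 2.51-fold (2.37–2.66) and Tfpi 2.22-fold (2.11–2.34). Procr was at 0.582 of its GFPlo level (0.546–0.620). That is 3 of 9 genes higher and 5 lower, where 10.9% and 18.1% of all genes were. The median log2 ratio was -1.15 over the 9 genes and -0.27 over all genes compared, and with median-of-ratios scaling, which takes out such a shift, Tfpi was 1.85-fold lower. The macrophage share was 76.9% of GFPhi cells and 0.552% of GFPlo cells. In GFPhi these cells held 96.6% of the F13a1, 89.0% of the Plau and 83.2% of the Plaur UMIs. Without macrophages only F13a1 was past 2-fold, at 24.3-fold higher, and Tfpi and Thbd changed direction, with GFPlo over GFPhi ratios of 0.962 and 0.918. The set without macrophages still held the mixed cells and those with no class. In GFPhi the C1q genes summed to 1391 and 2020 CPM in these. Endothelial, mesothelial, fibroblast and lymphocyte classes of GFPhi held 4, 14, 11 and 15 of the 15550 F13a1 UMIs. The part of macrophage RNA in the F13a1 ratio was not tested. The 66 macrophages of GFPlo had 90.4 CPM of F13a1 (62.6–126, 34 UMIs) and 151 CPM of Plaur (115–196).

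Within single classes few of these differences were seen. In fibroblasts 0 of the 6 compared genes were past 2-fold (background 0.653% higher and 0.436% lower), and the ratios ran from 0.695 for F3 (0.514–0.921) to 1.36 for Serpine2 (1.28–1.44). Summed over the endothelial classes 0 of 7 were (1.46% and 2.04%), from 0.737 for Procr (0.640–0.848) to 1.37 for Plaur (1.05–1.78). No test or tool beyond the ratio applies to these counts of 0. The summed endothelial cells differed in their mix of classes, with 90 of 232 endocardial in GFPhi and 477 of 812 in GFPlo. Class by class, the Procr ratio was 1.08 in endocardial (0.907–1.29), 0.722 in capillary (0.487–1.06) and 0.755 in lymphatic cells (0.538–1.04). The part of the mix in the summed ratios was not tested. In mesothelial cells 1 of 7 was past 2-fold, Serpine2, which was 2.53-fold lower in GFPhi (1.84–3.56), where 1.43% of genes were higher and 2.23% lower. With mesothelial cells limited to those with at most 1 C1q UMI, which left 61 of 301 cells in GFPhi, Serpine2 was 1.20-fold lower and Plat was past 2-fold lower in its place. Mesothelial cells of GFPhi were also deeper, with a median of 23860 against 14622 UMIs. The median log2 ratio of the compared genes was -0.14 in fibroblasts, 0.21 in endothelial cells and -0.22 in mesothelial cells, beside -0.10, -0.02 and -0.08 over all genes. The Plaur ratio in mesothelial cells was 0.572 (0.493–0.660) and the Tfpi ratio 1.31 (1.16–1.48).

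The single endothelial classes held 71 to 90 cells in GFPhi and were compared after the cell numbers were seen. In endocardial cells 0 of 6 genes were past 2-fold (1.93% and 4.93%), with ratios between 1.02 and 1.28 and every interval reaching 1. In capillary cells 0 of 6 were (3.04% and 4.54%). In lymphatic cells 1 of 7 was (2.49% and 5.59%): Plau was 2.68-fold lower in GFPhi (1.69–4.44), at 1.87 with Leiden clusters and 1.501 with thinned cells. Thbd was 1.84-fold higher there (1.41–2.39) and Serpine2 1.42-fold (1.09–1.84), but the Serpine2 ratio turned to 0.920 with at most 1 C1q UMI per cell, which left 35 lymphatic cells in GFPhi, and Thbd and Plat were then past 2-fold higher, at 2.25 and 2.09.

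**Figure D4:**
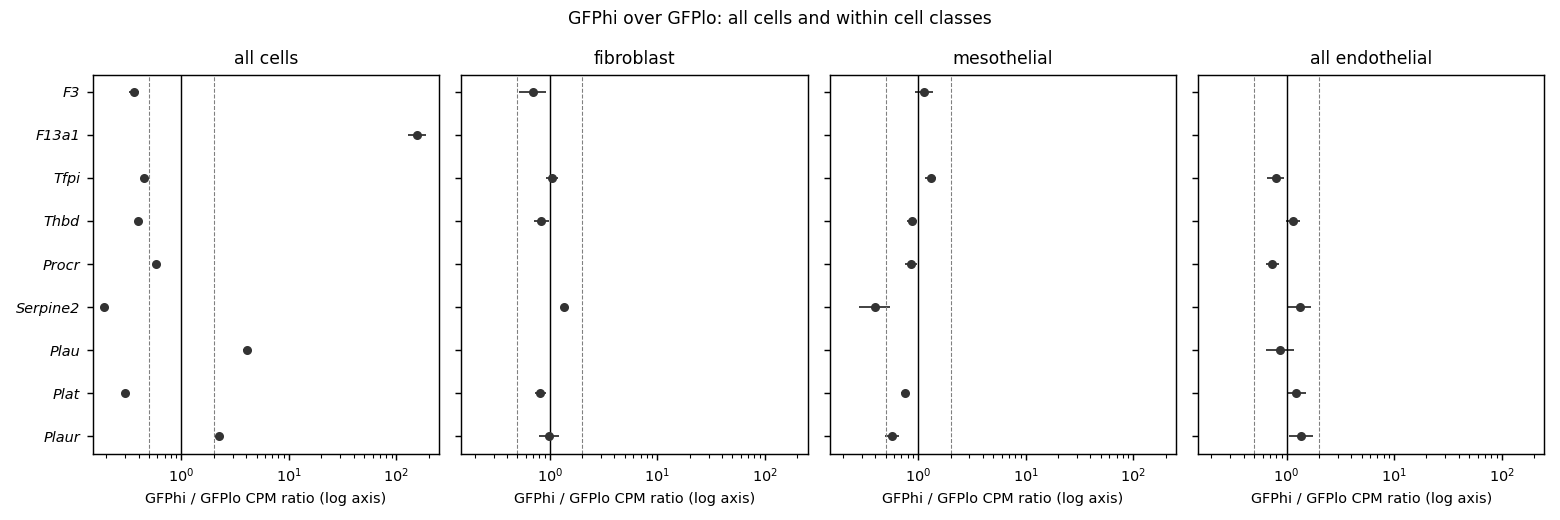
CPM ratio of GFPhi over GFPlo (log axis) over all cells and within fibroblast, mesothelial and endothelial classes, with exact conditional 95% intervals; dashed lines mark 2-fold and genes under the minimum are left out. Over all cells 8 of 9 genes lie past 2-fold, and within the 3 classes only Serpine2 in mesothelial cells does.

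Another 46 genes of the same system were listed in 6 groups. In GFPhi against GFPlo 15 of them were compared over all cells, of which 0 were past 2-fold higher and 7 lower, beside 10.9% and 18.1% of all genes. In mesothelial cells it was 0 of 15 higher and 3 lower, beside 1.43% and 2.23%. In fibroblasts 0 of 14 were past 2-fold in either direction, beside 0.653% and 0.436%, and in all endothelial cells 0 of 17, beside 1.46% and 2.04%. Among the 16 coagulation factors only Vwf, the platelet-tethering von Willebrand factor, reached 50 CPM. It stood at 976 and 835 CPM in endocardial cells, 72.7 and 155 in capillary cells and 2.86 and 10.5 in lymphatic cells of GFPhi and GFPlo. The fibrinogen chains Fga, Fgb and Fgg, made mainly by the liver, did not exceed 0.191 CPM in any class, prothrombin (F2) 1.73 CPM and plasminogen (Plg) 0.0299 CPM. Other factors under 50 CPM were not all absent. F8 was past 2-fold higher in endothelial-like cells than in fibroblasts of GFPhi and GFPlo (background 22.3% and 17%). F7 was so in macrophages against fibroblasts of GFPhi (16.9%) and in lipid-associated cells against other macrophages (1.49%). It was past 2-fold lower in MHC class II high and Gdf15 high cells (2.57% and 3.23%). F10 was past 2-fold higher in cycling macrophages (9.08%). These 5 genes, and F7, F8 and F10, are named after their values were seen.

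Among 9 anticoagulants Pros1, which encodes protein S, the cofactor of activated protein C, was highest in lymphatic cells at 122 and 104 CPM. In macrophages Pros1 was highest in resident-like cells at 57.8 CPM and lowest in lipid-associated cells at 12.6 CPM. Anxa5, a phospholipid-binding annexin, was present in all classes and highest in lipid-associated macrophages at 923 CPM. Among 4 thrombin receptors F2r, the receptor PAR1, followed the endocardial class at 183 and 179 CPM, with fibroblasts at 89.6 and 90.3 and macrophages at 0.268 to 0.535 CPM. F2rl1, the receptor PAR2, stood at 54.3 and 34.5 CPM in lymphatic cells and at 0 and 0.463 CPM in endocardial cells. In capillary cells it was past 2-fold lower than in the other endothelial cells in GFPhi but not in GFPlo.

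Of the fibrinolysis enzymes and inhibitors, Serpini1, neuroserpin, was at 186 CPM in mural cells and at most 19.96 CPM elsewhere. Vtn, vitronectin, was at 262 CPM in mural cells, but it is a marker of that gate.

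The receptors of plasminogen and of protease complexes were broad. Lrp1, which clears protease and inhibitor complexes, stood at 558 and 641 CPM in fibroblasts and 241 to 455 CPM in macrophages, against 5.72 to 22.5 CPM in endothelial classes. Anxa2 and S100a10, which together bind plasminogen, were highest in mesothelial cells, at 1523 and 1760.0 CPM for Anxa2 and 2085 and 2104 CPM for S100a10. Eno1 (131 to 489 CPM) and Plgrkt (55.3 to 171 CPM), other plasminogen receptors, had no class under 50 CPM. Of the vitamin K cycle and factor secretion genes, Lman1, a cargo receptor for factors V and VIII, was highest in endocardial cells at 364 and 347 CPM. Its partner Mcfd2 ran from 17.1 to 109 CPM. Vkorc1, the target of warfarin, was highest in fibroblasts at 598 and 521 CPM.

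Genes whose levels most resembled each member were sought across the 19 class and library units of at least 50 cells, by Pearson correlation of log2(CPM + 1) over 11739 genes. The units share libraries and differ in depth, so these are descriptions. Nearest to F13a1 were Ccr1 (0.946), Rasgrp4 (0.938) and Phf11a (0.926). Nearest to Tfpi were Ginm1, Zfp37 and Ston1 (0.976 to 0.957), to Thbd Tmtc1, Ssh1 and Ackr3 (0.958 to 0.953), and to Procr Aplp2, Cadps2 and Efnb2 (0.941 to 0.933). Serpine2 was nearest to Gucy1b1, Arhgap42 and C1qtnf2 (0.936 to 0.928) and Plat to Map1b, Myo1d and Eml1, each at 0.974. Plau was nearest to Pisd, Litaf and Prr5l (0.927 to 0.882), and Plaur to Brk1, Plekho2 and Cdc42 (0.892 to 0.871). F3 did not reach 50 CPM in any class and was left out.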

How the data were processed

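Single-cell RNA was measured in 1 GFPhi and 1 GFPlo library. The values are UMI counts per gene and barcode as deposited by the authors, not normalized. Per the submitters' processing notes the build was mm10; the labels name no aligner, counter or strand setting. One label names a SeekOne kit and another 10x Genomics.

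The 9 genes, the gene lists and the marker lists were chosen with earlier results of these data known, and marker thresholds were set after marker counts were seen. Cells with 300 genes, 500 UMIs and at most 20% mitochondrial UMIs were kept. A class asked for a number of its markers with a UMI (macrophage 5 of 10, endothelial 4 of 9, mesothelial 3 of 9, mural 3 of 8, fibroblast 6 of 10). No doublet caller was run. Cells passing more than 1 class other than fibroblast were left out as mixed. So were cells with more than 7 fibroblast markers in another class, except mesothelial-like cells, which were kept. Mixed cells numbered 390 in GFPhi and 295 in GFPlo, and 975 and 1358 cells had no class.

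UMIs were summed per class and library (python 3.11.15, scipy 1.17.1, scanpy 1.11.5), divided by the class total, and given exact 95% intervals. A count of 0 allows 3 counts. With 1 library per group there is no test, and p-values would need replicates. The ratio script was tested on simulated data. Text names all 9 genes, listed genes reaching 50 CPM in a class of at least 50 cells, and for each of the 9 reaching 50 CPM the 3 most correlated genes, passing over mitochondrial, reporter and unnamed gene models. Alternatives were the cell filter, gates, C1q, clusters, scaling, thinning, the minimum, the fold and shared barcodes; the last, and single endothelial classes between libraries, were added after seeing the data. Of 32285 Ensembl IDs 32235 matched the annotation. One listed gene is not reported here.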

Additional observations from a re-analysis of the deposited data

Results flagged for a closer look

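Thbd differed in the direction of its GFPhi over GFPlo ratio between cell classes. The ratio was 1.84 in lymphatic cells (1.41–2.39), 0.875 in mesothelial cells (0.782–0.978) and 0.837 in fibroblasts (0.710–0.981), with no interval reaching 1. Serpine2 did so as well, at 1.36 in fibroblasts (1.28–1.44), 1.42 in lymphatic cells (1.09–1.84) and 0.395 in mesothelial cells (0.281–0.544). With 1 library per fraction the difference between classes was not tested. The C1q genes summed to 196, 129 and 156 CPM in the lymphatic, mesothelial and fibroblast cells of GFPhi. With at most 1 C1q UMI per cell, which left 35, 61 and 78 of these cells, the opposite directions did not all remain. Thbd was then at 2.25 in lymphatic cells, 0.823 in mesothelial cells and 1.05 in fibroblasts. Serpine2 was at 1.18 in fibroblasts, 0.920 in lymphatic cells and 0.836 in mesothelial cells, where it was 1.20-fold lower and no longer past 2-fold.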

How the results depend on the processing

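Each gene past 2-fold was recomputed under every alternative that applied to it: of 537 such values 495 stayed past 2-fold and above the minimum, and 2 reversed. No filter on cells, a stricter filter and leaving out shared barcodes each kept 70 of 70. No paired analysis was possible because each fraction has 1 library. With 1 marker more per gate, genes higher in lipid-associated cells went from 1 to 0 and genes lower in lymphatic cells of GFPhi from 2 to 1, as the latter did with at most 1 C1q UMI outside macrophages. With Leiden clusters, genes past 2-fold between libraries in all endothelial cells went from 0 to 1 higher, capillary cells from 2 to 1 higher in GFPhi and from 1 to 2 in GFPlo, lymphatic cells of GFPhi from 1 to 2 higher and from 2 to 0 lower, and endothelial against fibroblast cells of GFPhi from 1 to 2 lower. With cells thinned to 1000 UMIs, fibroblasts between libraries went from 0 to 1 higher and 0 to 1 lower, resident-like cells from 0 to 1 lower, endocardial cells of GFPhi from 2 to 1 higher and 4 to 0 lower, capillary cells of GFPhi from 2 to 0 higher and 3 to 0 lower and of GFPlo from 1 to 2 higher and 4 to 2 lower, lymphatic cells of GFPhi from 1 to 0 higher and 2 to 1 lower, and mesothelial against fibroblast cells of GFPhi from 2 to 1 higher. Without macrophages the libraries differed in 1 gene higher, from 3, and 0 lower, from 5, with Tfpi and Thbd at log2 ratios of 0.0555 and 0.123. A minimum of 50 CPM left 2 of 5 genes lower over all cells, 0 of 1 lower in mesothelial cells between libraries, 0 of 1 higher in lipid-associated cells, 0 of 2 higher in mesothelial against fibroblast cells of GFPhi, 2 of 4 higher in endothelial against fibroblast cells of GFPhi and 1 of 2 lower in GFPlo. At 1.5-fold, mesothelial cells between libraries had 2 lower, resident-like cells 2 higher and mesothelial against fibroblast cells 5 higher in GFPhi and 4 in GFPlo. Beyond settings that act by their own construction, the cause was not tested. Thinning to 1000 UMIs put 13 values under the minimum, so differences in these genes were not detectable at that depth.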
